A study of Mus musculus with 2 samples.

Results

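Carboxylesterase genes of the mouse colon were followed on 2 arrays, one from mice fed a control diet and one from mice fed a diet with psyllium. The 9 genes described are Ces1d, Ces1e, Ces1f and Ces1g of the Ces1 group and Ces2a, Ces2b, Ces2c, Ces2e and Ces2g of the Ces2 group. Of these, 8 are among the 22180 genes that a probe set of the array names alone. The members were picked with their values on these arrays already known, so what follows describes them and tests nothing. A probe set is the group of probes whose signals are summarised as 1 value, and each of 8 members had exactly 1 that named it and no other gene. No probe set naming Ces2c was found in the platform annotation, and this gene was not analysed here. The same annotation gave no probe set that names a carboxylesterase together with another gene.

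Both arrays carried total RNA from the colon of healthy male mice of the outbred ICR stock, 7 weeks old. The psyllium group ate a diet with 10% psyllium, a gel-forming fibre from seed husks, for 5 days, and the control group ate a diet without it. How many mice gave RNA to each array, and which stretch or layers of the colon were taken, is not stated in the labels. Each diet has 1 array, so no value has a replicate check, and no error, standard deviation or p-value can be given. All levels are normalised intensities on a linear scale, and all differences are log2 intensity with psyllium minus log2 intensity on the control diet. In such tissue RNA, fewer cells of a type, less RNA per cell and a difference in the stretch or layers taken cannot be told apart.

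Carboxylesterases are serine hydrolases that sit in the lumen of the endoplasmic reticulum and cleave ester, thioester and amide bonds. In the liver and gut they hydrolyse drugs and prodrugs, pesticides and lipid esters such as triglycerides, and the absorptive cells of the intestinal lining are a main site of the Ces2 enzymes. The mouse carries many more copies of these genes than humans do, arranged in tandem clusters on chromosome 8. Enzymes of the Ces1 group tend to prefer esters with a small alcohol part, and those of the Ces2 group esters with a small acyl part, among them the prodrug irinotecan. Several are known targets of nuclear receptors that sense foreign compounds, bile acids and fatty acids.

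Promoters of 6 members were held in the RefSeq promoter table of assembly GRCm38.p6, which is C57BL/6J sequence and not that of ICR mice. The 250 bases before the annotated start are shown for 3 Ces2 genes and 2 Ces1 genes. Ces2a, Ces2e and Ces1g were more than 2-fold lower on the psyllium array. Ces2g and Ces1e, of the same clusters but not directly next to them, were less than 1.5-fold lower. They lie at chr8:104733753-104734002 on the plus strand for Ces2a, chr8:104926010-104926259 on the plus strand for Ces2e and chr8:104961468-104961717 on the plus strand for Ces2g. Those of the Ces1 group lie at chr8:93337210-93337459 on the minus strand for Ces1g and chr8:93229620-93229869 on the minus strand for Ces1e. Each is written 5′ to 3′ along its gene. Capitals mark matches, on either strand, to the short motifs named in the next paragraph and to both Ces2 strings of 11 bases described there.
Ces2a upstream: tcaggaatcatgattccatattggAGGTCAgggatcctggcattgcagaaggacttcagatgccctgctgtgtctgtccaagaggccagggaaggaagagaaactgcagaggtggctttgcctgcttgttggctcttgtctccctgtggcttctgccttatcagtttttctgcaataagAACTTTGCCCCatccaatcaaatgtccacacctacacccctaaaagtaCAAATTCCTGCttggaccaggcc
Ces2e upstream: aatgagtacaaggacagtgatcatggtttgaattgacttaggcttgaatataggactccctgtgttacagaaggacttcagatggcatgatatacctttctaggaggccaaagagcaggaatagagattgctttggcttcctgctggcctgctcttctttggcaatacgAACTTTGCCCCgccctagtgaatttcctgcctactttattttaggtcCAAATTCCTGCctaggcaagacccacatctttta
Ces2g upstream: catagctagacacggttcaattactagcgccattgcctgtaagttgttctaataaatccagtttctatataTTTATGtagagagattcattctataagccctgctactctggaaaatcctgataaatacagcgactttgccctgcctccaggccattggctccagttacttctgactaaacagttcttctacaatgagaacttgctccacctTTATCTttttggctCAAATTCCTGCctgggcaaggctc
Ces1g upstream: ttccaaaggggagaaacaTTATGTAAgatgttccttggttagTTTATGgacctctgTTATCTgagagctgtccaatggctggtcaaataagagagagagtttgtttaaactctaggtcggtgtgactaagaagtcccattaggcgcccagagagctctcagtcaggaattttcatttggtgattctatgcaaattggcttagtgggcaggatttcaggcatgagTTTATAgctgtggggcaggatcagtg
Ces1e upstream: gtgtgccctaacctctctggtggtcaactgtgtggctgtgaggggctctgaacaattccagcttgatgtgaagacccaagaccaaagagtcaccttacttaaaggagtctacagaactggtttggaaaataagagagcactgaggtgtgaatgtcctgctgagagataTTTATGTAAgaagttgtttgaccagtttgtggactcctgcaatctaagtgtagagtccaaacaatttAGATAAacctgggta

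Promoters shared strings of bases within both groups and also across them. Over a global alignment the upstream sequences of Ces2a and Ces2e had 53.2% identical positions, those of Ces2a and Ces2g 53.4%, and those of Ces1e and Ces1g 47.1%. Across the groups the shown pairs ran from 45.7% (Ces1g and Ces2e) to 51.1% (Ces1e and Ces2e), a range that holds the Ces1 pair. Ces1e and Ces1g shared a string of 11 bases, AAATAAGAGAG, which is not capitalised. Across the groups, Ces1e and Ces2g shared one just as long, ATATTTATGTA. The longest string common to Ces2a, Ces2e and Ces2g was CAAATTCCTGC, which 8 of 32851 promoters of the same length held (0.0244%). A second string, AACTTTGCCCC, was the longest common to Ces2a, Ces2e and Ces2f. It lay at positions -71 to -61 in Ces2a and -81 to -71 in Ces2e, counted from the annotated start. It was held by 6 of 32851 promoters (0.0183%) and was not in the Ces2g window. The upstream window of the member Ces2c held neither string. These strings were found by comparing the sequences themselves, and shared strings are usual between tandem copies. Of the motifs searched, the D-box TTATGTAA, which PAR bZIP factors such as Dbp bind, was present in both Ces1 promoters shown. It occurred in 5 of 6 Ces1 genes with a promoter entry (5 of 7 Ces1 promoters) and in 0 of 9 other carboxylesterase genes. The share over all promoters was 0.819%. Its carriers were Ces1a, Ces1b, Ces1c, Ces1e and Ces1g. Of these Ces1b was higher on the psyllium array (0.44), and Ces1a and Ces1c were dim on both arrays. The D-box can overlap the CDX motif TTTATG. That CDX motif was present in 3 of 6 member promoters (10.8% of all promoters), the GATA motif AGATAA in 3 of 6 (9.99%), the nuclear receptor element AGGTCA in 1 of 6 (14%, Ces2a) and the TATA box TATAAA in 1 of 6 (12.4%, Ces1g). The E-box CACGTG, the HNF4 core CAAAGTCCA, the DR1 repeat and the HNF1 site had no match in the 6 windows, beside 6.02%, 0.384%, 0.0335% and 0.0609% of all promoters. A match describes letters in a window and shows no binding.

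All 8 measured members had lower values on the psyllium array, as did 56.6% of all genes past the filter described below, 4 of the 8 by more than 2-fold and 4 by less than 1.5-fold. The 4 that were far lower were Ces2a, Ces1g, Ces2b and Ces2e, and the 4 with small differences were Ces1f, Ces1e, Ces2g and Ces1d. The median difference of the 8 members was -0.90, with a range from -2.90 to -0.08. To set this against the whole array, a gene entered the counts when the higher of its intensities reached 69.5, the median of these higher values over all genes, which 11090 genes did. All 8 measured members passed this filter, and 7 of them did so on both arrays. Among those 11090 genes the median difference was -0.04, and 2.42% were at least 1.5-fold lower while 0.514% were at least 2-fold lower. At least 1.5-fold higher were 4.03% of the genes, and 0 of the 8 members.

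**Figure D1:**
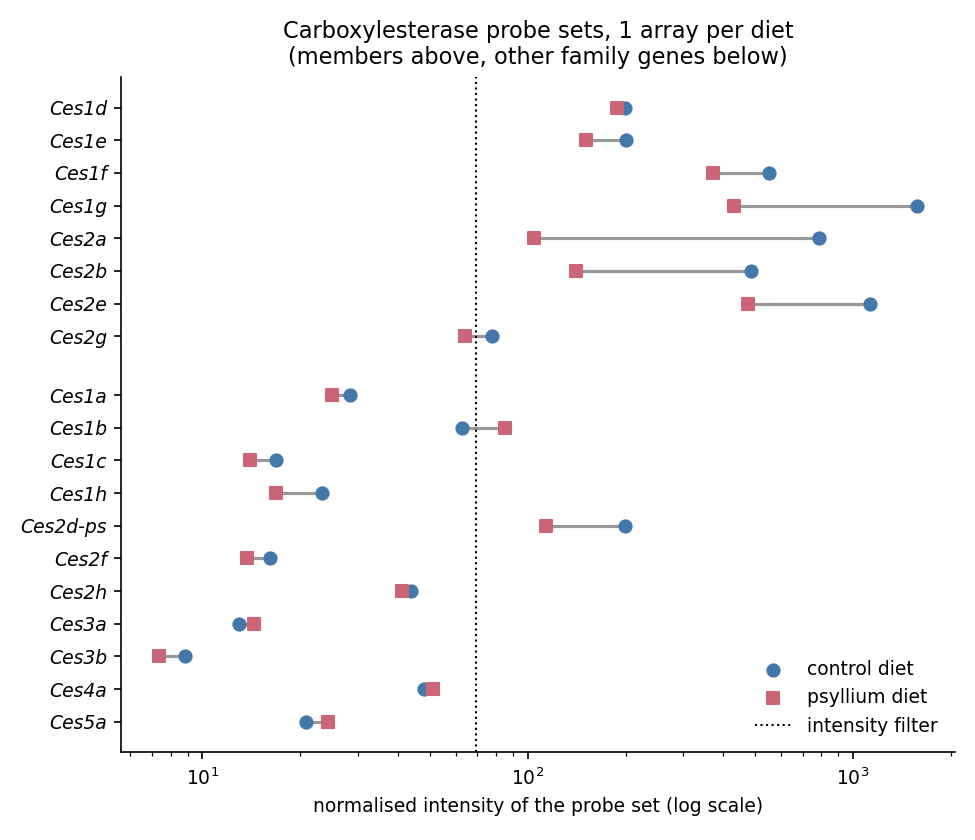
Normalised intensity (log axis) of the 19 measured carboxylesterase genes on the control array (circles) and the psyllium array (squares), 1 array per diet with no error bars, members above and other family genes below, and the dotted line at the filter of 69.5. The lines joining the arrays are longest for Ces2a, Ces1g, Ces2b and Ces2e.

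Within the Ces2 group 3 of 4 measured members were more than 2-fold lower with psyllium. Ces2a read 784 with the control diet and 105 with psyllium, so that 13.4% of the control value remained. This is a difference of -2.90, or 7.47-fold lower, the most negative value among the 11090 genes past the filter. Ces2b, the next carboxylesterase gene along the chromosome, read 487 and 141, which is 3.46-fold lower (-1.79). Ces2e read 1125 and 476, or 2.36-fold lower (-1.24). Values of Ces2a and Ces2b on the psyllium array were still above the filter, so neither fold rests on a value below it. Ces2g differed far less, with 77.9 and 64.3 (1.21-fold lower, -0.28), and its psyllium value lay under the filter. The median of these 4 genes was -1.52.

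In the Ces1 group 1 of 4 members was more than 2-fold lower. Ces1g, a liver and gut enzyme that restrains lipid release into the blood, read 1573 with the control diet and 432 with psyllium, or 3.64-fold lower (-1.87). Ces1f, which hydrolyses stored triglyceride in liver and fat, read 551 and 373. At 1.48-fold lower (-0.56) it lay just short of the 1.5-fold line, with 2.80% of genes past the filter at or below it. Ces1e, known as egasyn for holding beta-glucuronidase in the endoplasmic reticulum, read 201 and 151 (1.33-fold lower, -0.41). Its partner Gusb, the gene of beta-glucuronidase, read 228 and 249, a difference of 0.13. Ces1d, the triacylglycerol hydrolase of liver and adipose tissue, was nearly level at 200 and 189 (1.06-fold lower, -0.08). The median of these 4 genes was -0.49.

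**Figure D2:**
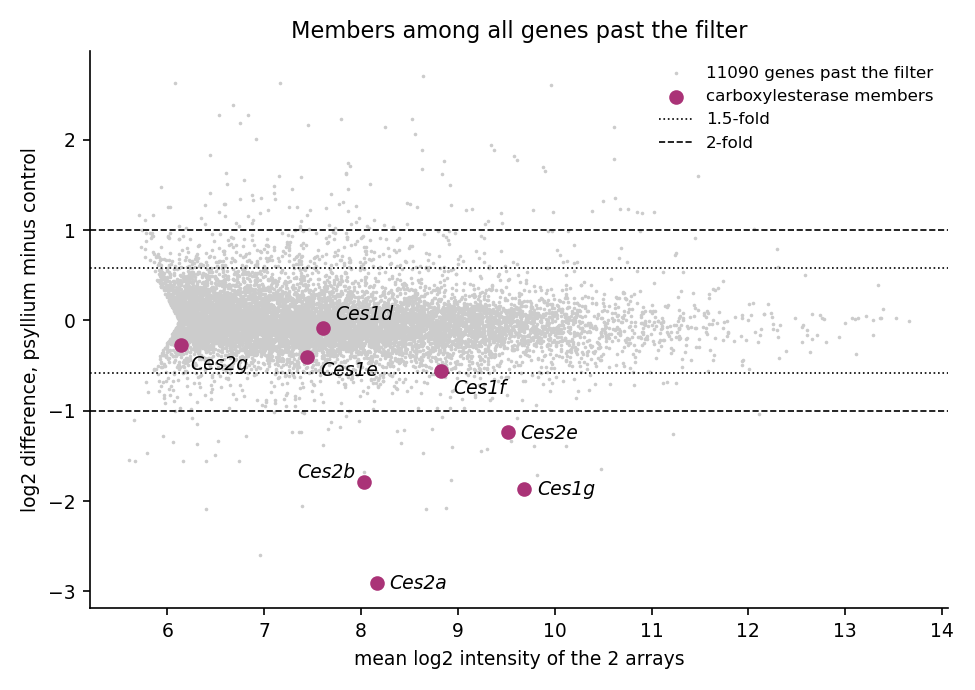
Log2 difference, psyllium minus control, against mean log2 intensity for the 11090 genes past the filter (grey) and the 8 measured members (coloured), with dotted lines at 1.5-fold and dashed lines at 2-fold. Ces2a, Ces1g, Ces2b and Ces2e lie below the lower 2-fold line, and Ces1f, Ces1e, Ces2g and Ces1d lie between 0 and the lower 1.5-fold line, Ces1f close to it.

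Intensities of different probe sets depend on their probes, so the order of the members' levels is not an order of transcript amounts. Each fold compares 1 probe set with itself. Members have close relatives in sequence, and where a probe binds several of them its value mixes their transcripts. None of the 8 members had a second probe set that could check its value. Across the array, 286 genes had exactly 2 probe sets past the filter, and the median gap between their differences was 0.19, measured on the same RNA.

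Along chromosome 8 the measured genes that were far lower lay close together in the Ces2 cluster, and a single one stood in the Ces1 cluster. In RefSeq order the Ces2 genes run Ces2a, Ces2b, Ces2c, Ces2d-ps, Ces2e, Ces2f, Ces2g and Ces2h, followed by Ces3a, Ces3b and Ces4a. The pseudogene Ces2d-ps, which lies among the lower members and is not a member itself, read 199 and 114 and was 1.74-fold lower (-0.80). Its similarity to its coding neighbours makes its value uncertain. In the Ces1 cluster Ces1d, Ces1e, Ces1f and Ces1g follow each other, with differences of -0.08, -0.41, -0.56 and -1.87. Beyond Ces1g, Ces1h read 23.3 and 16.8, under the filter on both arrays.

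Past the filter, no gene of another family next to the clusters had a difference below -0.18. Taking the 3 nearest measured genes on either side and 1 within, 13 genes in all, 7 passed the filter and 0 were 1.5-fold lower. With 2.42% of all genes past the filter at least 1.5-fold lower, a count of 0 among 7 says little. Their median was 0.05 and the range ran from -0.18 to 0.71. The upper end was B3gnt9, a glycosyltransferase gene beyond Ces4a, which read 69.8 and 114. Ciao2b, directly before Ces2a, differed by -0.18, and Gnao1 and Cbfb, on the far sides of the clusters, by 0.20 and 0.05. The predicted gene 4932416K20Rik between Ces2a and Ces2b read 36.3 and 25.6 (1.42-fold lower, -0.50). It lay under the filter on both arrays and is not in that range.

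**Figure D3:**
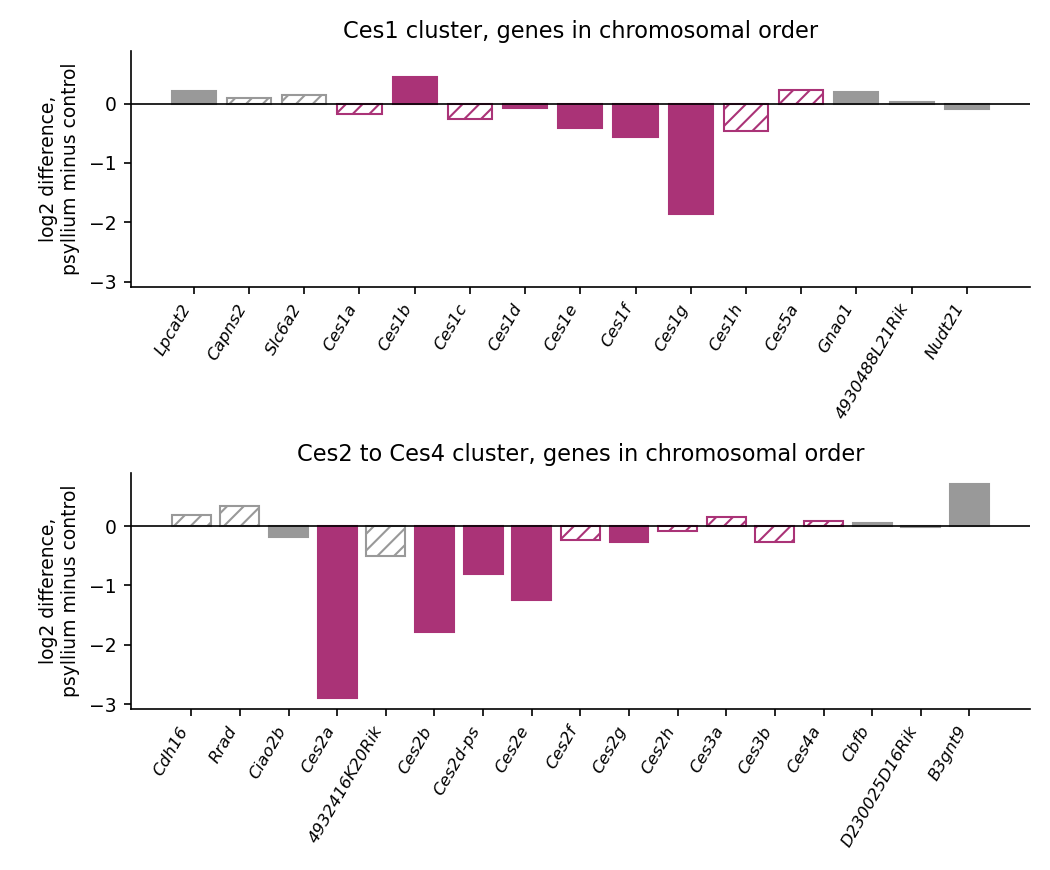
Log2 difference, psyllium minus control, for measured genes in RefSeq order along the Ces1 cluster (top) and the Ces2 to Ces4 cluster (bottom), evenly spaced and not to scale. Carboxylesterase genes are coloured, other genes grey, and hatched bars are genes under the intensity filter on both arrays. Long downward bars are those of Ces1g, Ces2a, Ces2b and Ces2e.

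The remaining 11 genes of the family were mostly dim on both arrays. Past the filter were Ces2d-ps, given above, and Ces1b, which read 62.8 and 85.3 and so was 1.36-fold higher (0.44). The control value of Ces1b lay under the filter. The other 9 were under it on both arrays, and their values say little about a change. Ces1a read 28.4 and 25.0, Ces1c 16.8 and 14.0, and Ces2f 16.1 and 13.7. Ces2h read 43.9 and 41.2, Ces3a 12.9 and 14.4, and Ces3b 8.84 and 7.37. None of these differed by 1.5-fold. Ces4a read 47.9 and 51.0, and Ces5a, a secreted esterase of the kidney and male tract, 20.7 and 24.3. Ces1c and the Ces3 genes are abundant in liver or plasma rather than in the gut.

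Other hydrolases of lipid and drug esters did not show the large differences of Ces2a, Ces1g, Ces2b and Ces2e, with a single exception. The list used for them also holds Gusb, the gene of beta-glucuronidase. Of its 21 genes past the filter 1 was at least 1.5-fold lower and 0 higher, beside 2.42% and 4.03% of all genes past it. With so few genes these counts say little. The median of the 21 was -0.17 against -0.04 over all genes. The exception was Aadac, arylacetamide deacetylase, another drug and lipid esterase of the endoplasmic reticulum, which read 127 and 49.3 (2.57-fold lower, -1.36), the latter under the filter. The cytosolic and lysosomal lipases past the filter differed by less than 1.5-fold. Mgll (monoglyceride lipase) stood at 0.02, Pnpla2 (adipose triglyceride lipase) at -0.23 and Lipa (lysosomal acid lipase) at -0.27. These 3 were named after their values were seen.

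The genes that make, store and carry lipid esters had a median of -0.45, with 3 of 14 at least 1.5-fold lower and 0 higher. They were Dgat2, which completes triglyceride synthesis (341 and 198, 1.72-fold lower), Fabp2, an intestinal fatty acid carrier (2899 and 1803, 1.61-fold lower), and Plin2, a lipid droplet coat protein (438 and 274, 1.60-fold lower). Among other drug-metabolising enzymes and efflux pumps 14 of 25 genes past the filter were at least 1.5-fold lower and 0 higher, 6 of them passed 2-fold, and the median was -0.65. The largest were the cytochrome P450 genes Cyp2c66 (123 and 41.7, 2.95-fold lower, the latter under the filter) and Cyp4f14 (663 and 239, 2.77-fold lower). Abcb1a, the P-glycoprotein drug pump, read 3694 and 1545 (2.39-fold lower), and Gstm3, a glutathione transferase, 253 and 107 (2.36-fold lower). Over all genes past the filter 2.42% were 1.5-fold lower, as given above.

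Transcription factors known to act on carboxylesterase or enterocyte genes were also lower, 24 of 26 by less than 1.5-fold. The 26 include Keap1 (-0.05), which is not itself a transcription factor. All 26 past the filter had negative differences, against 56.6% of all genes, and 2 were at least 1.5-fold lower, against 2.42% of all genes. Their median was -0.30, which is below 0 but above the median of -0.57 of the absorptive colonocyte markers given further on, so the direction turns if those are taken as the zero point. Nr1d1, a clock repressor, read 662 and 316 (2.09-fold lower), and Ppara, a fatty acid receptor, 292 and 179 (1.63-fold lower). Below that fold were Nr1i2, the pregnane X receptor for foreign compounds, at -0.55, Dbp, a clock-driven PAR bZIP factor, at -0.54, Cdx2, an intestinal identity factor, at -0.49, and Hnf4a, an enterocyte nuclear receptor, at -0.48. These 4 were named after their values were seen and were the next lowest of the 26 after Nr1d1 and Ppara. Relatives of Dbp, Cdx2 and Hnf4a on the same list differed less. Tef and Hlf, relatives of Dbp, stood at -0.22 and -0.17, Cdx1 at -0.29 and Hnf4g at -0.11. These relatives were also named after their values were seen. Whether any of these factors acted on the carboxylesterase genes was not tested. Nr1i3, the constitutive androstane receptor, was under the filter on both arrays at 36.2 and 38.7. Of the receptors that return proteins to the endoplasmic reticulum, where carboxylesterases are retained, Kdelr3 read 119 and 238 (1.99-fold higher), Kdelr2 differed by 0.24 and Kdelr1 by 0.15.

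**Figure D4:**
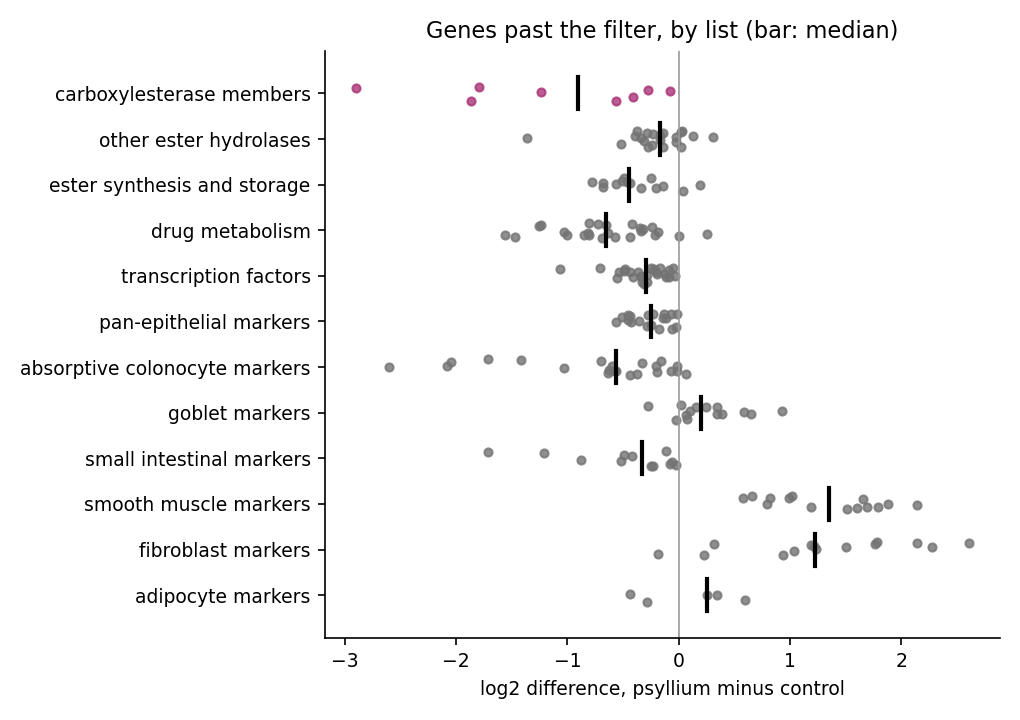
Log2 difference, psyllium minus control, for genes past the filter in 12 lists, 1 point per gene with small vertical jitter and a bar at the list's median. Carboxylesterase members run from -2.90 to -0.08, absorptive colonocyte markers spread over a like range, and smooth muscle and fibroblast markers lie mostly above 0.

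Epithelial and absorptive cell markers were lower together with the carboxylesterases, while muscle and fibroblast markers were higher, and their part in the result was not tested. Pan-epithelial markers, 19 of 19 measured ones past the filter, all had negative differences, against 56.6% of all genes past it. Their median was -0.25, against -0.04 over all genes past the filter, and their summed intensity went from 33961 (control) to 29077 (psyllium). Absorptive colonocyte markers, 22 of 22, had a median of -0.57, and their sum went from 63603 (control) to 48301 (psyllium). Of them 10 were at least 1.5-fold lower and 0 higher, beside 2.42% and 4.03% of all genes past the filter. The low end of that list overlapped the members: the water channel Aqp8 read 307 and 50.5 (6.07-fold lower, the latter under the filter) and the alkaline phosphatase Alpi 1635 and 498 (3.28-fold lower), but Krt20 differed by -0.44, Slc26a3 by -0.33 and Guca2a by 0.07. Smooth muscle markers, 14 of 14, had a median of 1.35 and fibroblast markers, 14 of 14, a median of 1.23, with sums going from 13790 (control) to 33041 (psyllium) and from 6345 (control) to 16220 (psyllium). Goblet cell markers, 14 of 14, had a median of 0.20. Over markers past the filter, medians were 0.37 for macrophages (12 genes), -0.86 for T cells (6), -0.04 for endothelium (11), -0.15 for enteric neurons and glia (3), -0.16 for enteroendocrine cells (6) and -0.0025 for proliferation (10). No marker was at an intensity of 0, the lowest value on either array being 1.76.

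With the pan-epithelial median taken as the zero point, Ces2a was still at -2.65, Ces1g at -1.62, Ces2b at -1.54 and Ces2e at -0.99. With that of the absorptive colonocyte markers they stood at -2.33, -1.30, -1.23 and -0.67. The other 4 members changed place: Ces1d was at 0.17 and 0.48, Ces1e at -0.16 and 0.16, Ces1f at -0.32 and 0.0035, and Ces2g at -0.03 and 0.29. So the direction of these 4 depended on the zero point, and that of the other four did not under either.

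**Figure D5:**
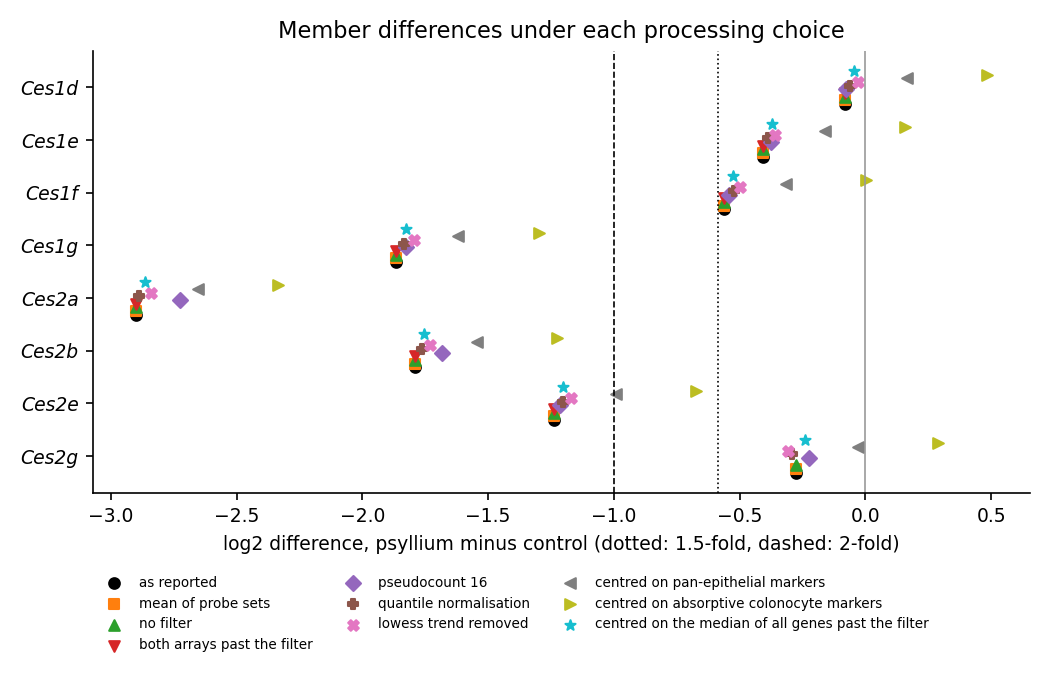
Log2 difference, psyllium minus control, of the 8 measured members as reported (black circles) and under 9 other processing choices (other symbols), with lines at 1.5-fold and 2-fold lower. Ces2a, Ces1g, Ces2b and Ces2e stay left of the 1.5-fold line under every choice shown, and the choices that move members farthest are the centrings on epithelial markers.

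Liver and fat are rich in Ces1 enzymes, and markers of both tissues were measured. Of 15 measured hepatocyte markers 3 passed the filter: Tat (739 and 514), Cps1 (299 and 193) and Hp (46.7 and 88.9), of which Cps1 is also made by intestinal cells. Among the dim liver genes were albumin, Alb, at 16.6 and 17.6, Ttr at 61.9 and 59.8, and Fgb at 19.6 and 20.0. Of 11 adipocyte markers 5 passed the filter, with a median of 0.26. Fabp4 read 292 and 349, Car3 191 and 289, and Plin4 153 and 193, whereas Cidec (-0.44) and Lipe (-0.28) were lower with psyllium. The fat hormones Adipoq, at 27.2 and 31.7, and Lep, at 21.3 and 23.4, were under the filter. The part of liver or fat in the result was not tested. Small intestinal markers had a median of -0.33 over the 12 past the filter, with the apolipoprotein Apoa4 2.31-fold lower (529 and 229) and Lyz1 1.84-fold lower (247 and 135).

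The genes whose differences came nearest that of Ces2a among the 11090 were Aqp8 (-2.60), Sprr1a (-2.09), Slc37a2 (-2.09), Clca4a (-2.08) and Clca4b (-2.05). Likeness here is the gap between single log2 differences on 2 arrays, 0.30 for Aqp8 and between 0.81 and 0.85 for the other four. Sprr1a, a cornified envelope protein, read 174 and 40.8, the latter under the filter like that of Aqp8, and Slc37a2, a sugar phosphate transporter, 841 and 198. Aqp8, Clca4a and Clca4b were also on the list of absorptive colonocyte markers.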

How the data were processed

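The deposited table holds 1 normalised intensity per probe set and array on a linear scale, 41345 probe sets in all. RMA and Affymetrix Expression Console are named in the submitters' processing notes, without versions, and RNA was labelled with the GeneChip WT PLUS kit, per the labels' protocols. Genome build and annotation are not given in the sources used here, nor is how RMA's output was turned into linear values. If RMA's usual equalising of arrays was applied, a shift common to all transcripts is not visible. Intensities ran from 1.92 to 13675 on the control array and from 1.76 to 13841 on the psyllium array. The number of arrays limits the precision.

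Gene names came from the platform annotation in GEO, updated by gene number through RefSeq GRCm38.p6, which held 23328 of the 23521 probe sets naming 1 gene. Where a gene had more probe sets than 1, the brightest by mean log2 stood for it. Intensities were converted to log2 without a pseudocount (Python 3.11.15, pandas 2.3.3), and genes were counted at fixed folds of 1.5 and 2. Members, gene lists and motifs were chosen with earlier results of these data known. Named genes were all members and family genes, from each list up to 4 filtered genes past 1.5-fold, taken by size, or failing that 2 by mean level, and the 5 genes nearest Ces2a. Lists overlap: Cyp2c55 is both a drug metabolism and an absorptive marker gene. Krt20, Slc26a3, Guca2a, Gusb, Nr1i3, the chromosomal neighbours and the liver and fat markers outside this rule were named after their values were seen. The counting was tried on simulated data with shifts well past 2-fold in genes well above the filter. That trial did not test the 1.5-fold line or genes near the filter.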

Additional observations from a re-analysis of the deposited data

How the results depend on the processing

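Of 9 alternatives, 8 were planned and 1, centring on the median of all genes past the filter, was chosen after seeing the data. For both planned centrings on epithelial markers, the lists were chosen with earlier results of these data known. The absorptive list holds Aqp8, Clca4a and Clca4b, among the 5 genes nearest Ces2a. Their zero points are therefore not independent of these values. Under all 9 the same 4 members, Ces2a, Ces1g, Ces2b and Ces2e, were at least 1.5-fold lower. At 2-fold 4 members were lower under 7 alternatives and 3 under both centrings on epithelial markers, Ces2e being the one lost. The median of the members was -0.33, within 1.5-fold, after centring on absorptive colonocyte markers, and between -1.24 and -0.65 under the other 8. The -1.24 is a median over 7 members with unchanged values, since Ces2g left the count when both arrays had to pass the filter. Among other family genes Ces2d-ps fell short of 1.5-fold under both epithelial centrings (-0.55 and -0.24), and Ces1b passed it upwards (0.69 and 1.01). These centrings raised every difference by 0.25 and 0.57. They turned the counts of genes at least 1.5-fold higher and lower from 447 and 268 into 1105 and 98, and into 4442 and 43. Using the mean of probe sets repeats the reported member values, since each has 1 probe set, and dropping the filter changes which genes are counted but not the values.

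No paired analysis was possible because each diet has 1 array. Leaving out a replicate was not possible either. Signal over background limits Ces2g and the 9 family genes under the filter on both arrays, and Ces2c was not analysed here.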
